A study of Mus musculus with 6 samples.

Results

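RAB GTPases are small switch proteins that mark the membranes of the secretory and endocytic routes and recruit the effectors that move, tether and fuse vesicles. The family was taken as every gene of the crypt expression table whose symbol is Rab followed by a number and at most a letter and a digit, which gave 58 of 18049 genes. The crypts came from a mouse model of Lynch syndrome that carries Villin-Cre, active in the intestinal epithelium, and a humanized TgfβRII allele with a coding poly(A) microsatellite. Both groups shared this genotype, the C57BL/6J background and a Western-style diet. In the GSK503 group, 3 mice received this inhibitor of the histone methyltransferase EZH2 through the tail vein at 200 μg/kg in PBS. The 3 control mice received 20% captisol in PBS, and the injections are described as biweekly. Total RNA of the crypts was sequenced with 1 library per mouse. The study also examined Rab and Rab effector genes as a pathway by enrichment. The gene set behind that test was not used here, and the family and its partner genes are described one by one.

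RAB proteins cycle between an inactive GDP-bound and an active GTP-bound form. Exchange factors switch them on, GTPase-activating proteins switch them off, and prenylation with the help of escort proteins and GDI attaches them to membranes or takes them off again. In the colon, Rab27 and Rab3 proteins are best known for regulated release of secretory granules, as in goblet and enteroendocrine cells, and Rab11 and Rab25 for recycling to the apical surface of epithelial cells.

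The deposited values are estimated counts per 1000000 counts of a TMM-adjusted library, called scaled CPM below. The estimated depth was 108162848 to 135085027 counts per library, at which 3 counts correspond to 0.0228 to 0.0271 scaled CPM, a floor for counting error only. limma was run on log2(value + 0.1), so that each log2 fold change (log2FC) is GSK503 minus control on this scale, which makes changes at low levels look smaller than they are. P-values were adjusted over 16670 genes, those that reached 0.1 in 3 or more of the 6 mice. The groups also separated completely by X- and Y-linked expression. Xist was 0.419 to 0.936 in the control mice and 825 to 1236 in the GSK503 mice, and Uty was 42.5 to 53.7 and 0.670 to 1.08. Sex and treatment therefore cannot be told apart in any value given here. The vehicle also differed, with captisol in the control mice only, and cannot be told apart from treatment either. The epithelial markers Krt8, Epcam and Cldn7 were high in every mouse, with a summed level of 6736 to 7748 in the control and 7254 to 8512 in the GSK503 group.

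Of the 58 RAB genes, 56 passed the filter, none of them through the mice of a single group, and 50 reached 0.1 in every mouse. Rab39 and the X-linked Rab39b reached 0.1 in only 2 mice each and were not tested. Across the 6 mice, 36 members averaged above 10 scaled CPM and 13 below 1. At the adjusted p threshold of 0.05, 2 members were higher and 0 lower in GSK503 mice, against 0.498% of all genes tested that were called higher. At 0.1, 4 members were higher and 0 lower, against backgrounds of 1.41% and 0.558%. An unadjusted p below 0.05 was found for 8 members that were higher, against 7.06% of all genes, and 4 that were lower, against 6.27%. With each library scaled to its plain sum these became 6 higher of 18 in all, when the share of all genes in either direction rose from 13.3% to 20.4% and their median log2FC moved to -0.12. All 3 GSK503 mice lay above all 3 control mice for 10 members, where the background was 9.84%, and below them for 5, where it was 9.22%. For a single gene, the smallest p of an exact two-sided permutation test over 3 and 3 mice is 0.1.

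The family as a whole was centred near zero. Its median log2FC was -0.02, beside -0.01 over all genes tested, with 26 members higher and 30 lower by their means. Of the 56 members, 34 lay within 0.25 of zero on the log2 scale. The 95% confidence interval of the log2FC lay within 0.5 of zero for 29 members and within 1 for 42, while the intervals of the rest reached beyond 1 in at least one direction. The summed level of all 58 members was 2612.5 ± 19.2 (SD, n = 3) in control and 2774.8 ± 89.3 (SD, n = 3) in GSK503 mice. The sum over the whole table was also higher, 975566 to 982686 in control and 1035854 to 1076042 in GSK503 mice. The higher sum is therefore not particular to the family. The 4 members called at 0.1 were the granule regulators Rab27a, Rab27b and Rab3d and the recycling regulator Rab15.

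**Figure D1:**
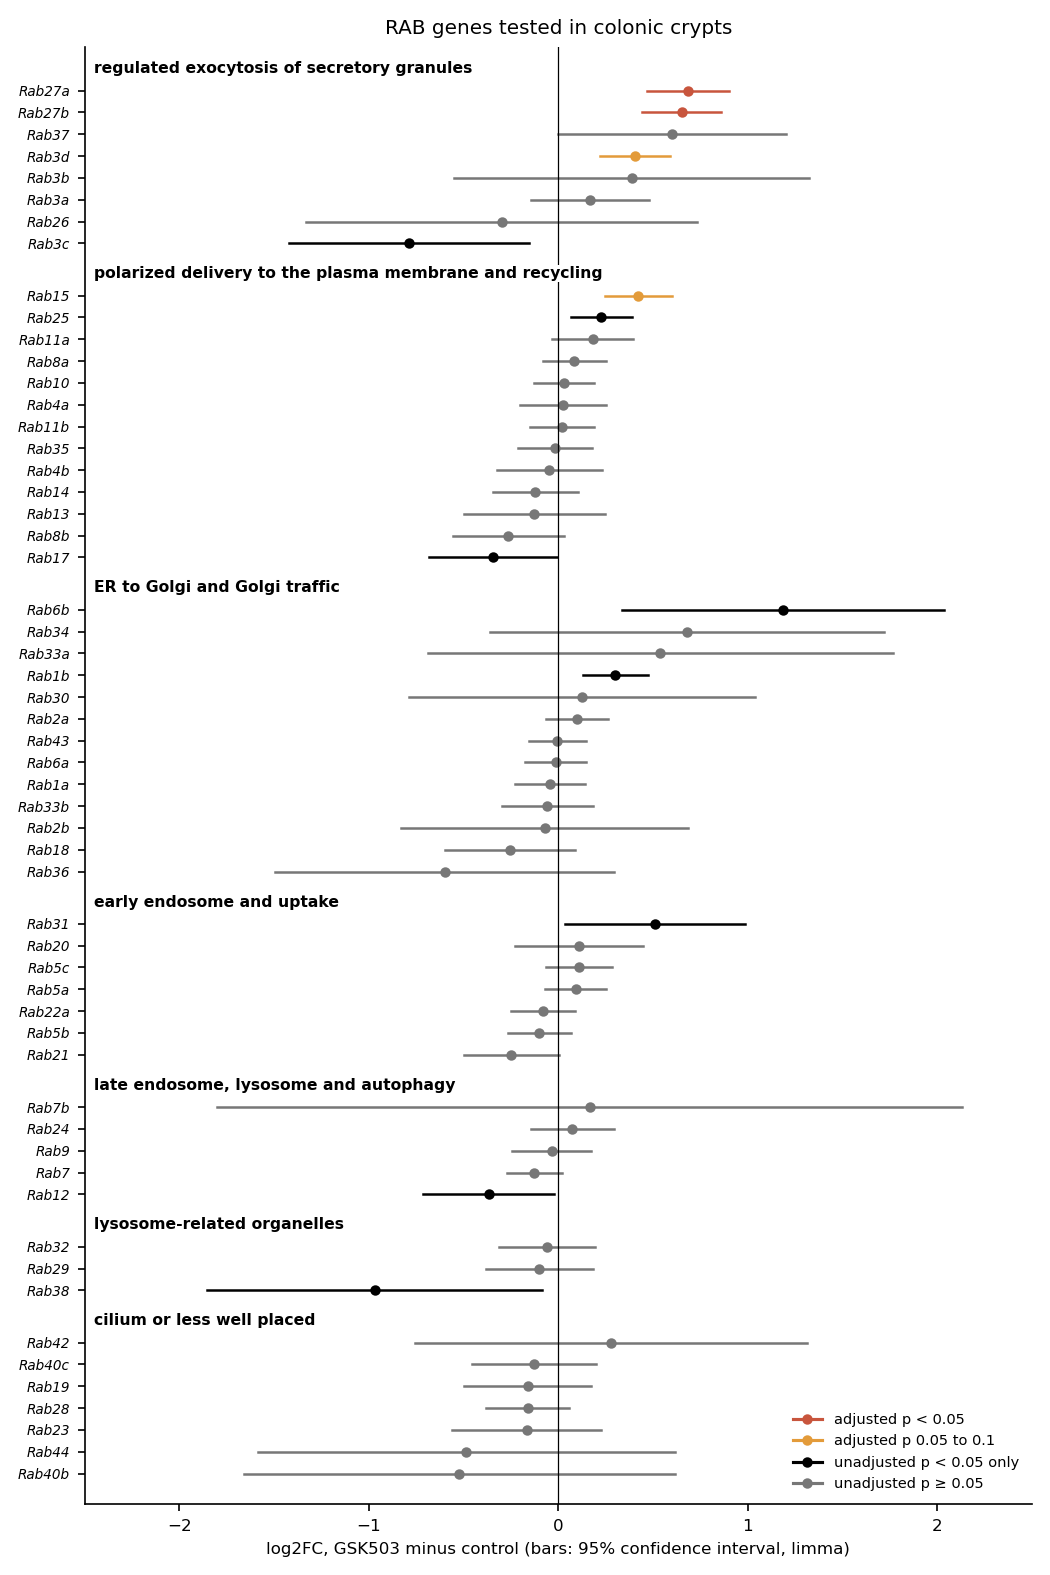
The log2FC (GSK503 minus control, horizontal axis) of the 56 RAB genes tested, grouped by role, with 95% confidence intervals from limma over 3 mice per group. Rab27a and Rab27b stand to the right at 0.69 and 0.65 with short intervals, whereas Rab6b at 1.19 and Rab38 at -0.97 have long ones.

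The promoters of 3 of the 4 called members are shown with that of Mlph, the Rab27 effector with the smallest p among the partner genes, as examples of the called genes. The sequences are from RefSeq on build GRCm38.p6, whereas the expression values used GRCm39. Each run holds the 250 bases upstream of the most upstream start listed, 5′ to 3′ on the strand of the gene, with CpG dinucleotides in capitals. They lie at chr9:73044560-73044809 on the plus strand for Rab27a, chr9:21918184-21918433 on the minus strand for Rab3d, chr12:76822525-76822774 on the minus strand for Rab15 and chr1:90914850-90915099 on the plus strand for Mlph.
Rab27a: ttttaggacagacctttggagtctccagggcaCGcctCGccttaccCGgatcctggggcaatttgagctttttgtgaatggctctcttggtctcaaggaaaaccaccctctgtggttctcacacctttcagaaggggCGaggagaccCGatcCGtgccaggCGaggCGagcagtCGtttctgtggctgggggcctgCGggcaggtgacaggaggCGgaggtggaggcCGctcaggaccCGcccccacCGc
Rab3d: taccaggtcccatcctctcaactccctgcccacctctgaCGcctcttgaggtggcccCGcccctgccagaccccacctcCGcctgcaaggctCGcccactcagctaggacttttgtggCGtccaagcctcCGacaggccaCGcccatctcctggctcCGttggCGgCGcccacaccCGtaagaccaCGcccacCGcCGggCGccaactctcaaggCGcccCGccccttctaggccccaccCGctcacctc
Rab15: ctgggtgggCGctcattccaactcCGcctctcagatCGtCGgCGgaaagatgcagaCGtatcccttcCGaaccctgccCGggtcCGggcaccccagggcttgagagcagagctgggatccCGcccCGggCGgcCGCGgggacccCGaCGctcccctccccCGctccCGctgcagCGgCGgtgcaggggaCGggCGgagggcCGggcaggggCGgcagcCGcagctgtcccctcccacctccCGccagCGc
Mlph: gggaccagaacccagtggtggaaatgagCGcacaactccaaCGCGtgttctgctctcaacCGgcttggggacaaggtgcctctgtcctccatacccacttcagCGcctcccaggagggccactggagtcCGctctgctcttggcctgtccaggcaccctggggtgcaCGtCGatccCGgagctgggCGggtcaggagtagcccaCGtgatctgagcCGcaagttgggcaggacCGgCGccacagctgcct
The runs held 14 CpG for Rab27a, 18 for Rab3d, 27 for Rab15 and 14 for Mlph. Over the 47 members with an entry the median was 16 CpG and the range 3 to 40, and over all 32851 promoters of the table the median was 6. Each member was counted once, at its most upstream start, whereas all promoters include every start listed for a gene, 4 for Rab15. The medians and the motif shares below therefore compare unlike units. Of all these promoters, 70.64% had fewer CpG than that of Rab27a and 91.44% fewer than that of Rab15. The palindromic E-box CAGCTG was found in Rab15 and Mlph and in 14.9% of the members' promoters, against 13% of all promoters. The CRE core TGACGT, searched on both strands, was found in none of the 4 runs, in 14.9% of the members' promoters and in 6.47% of all. These matches describe letters only.

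Among the 8 members that act in regulated exocytosis of secretory granules, 4 had all GSK503 mice above all control mice and 1 had them below, where the backgrounds were 9.84% and 9.22%. An adjusted p below 0.1 was found for 3, all higher, against 1.41% of all genes. Their median log2FC was 0.40, beside -0.02 for the family. Their summed level was 220.0 ± 17.4 in control and 308.6 ± 17.9 in GSK503 mice (SD, n = 3). The roles, here and below, were assigned with earlier results of these data known. The counts and medians by role are therefore a description and support nothing.

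Rab27a (ENSMUSG00000032202, GRCm39 chr9:72952124-73004911, plus strand) tethers and docks secretory granules at the plasma membrane. Its level was 33.7, 31.3 and 29.0 scaled CPM in the control group (mice 1 to 3, an order kept throughout) and 46.3, 55.7 and 49.6 in the GSK503 group. The groups did not overlap, and the ratio of means was 1.61 (log2FC 0.69, SE 0.10, limma adjusted p = 0.0157). Rab27b, its close paralog with overlapping functions in granule docking, stood at 48.0, 45.1 and 39.3 in control and 65.1, 72.3 and 69.9 in GSK503 mice. Again the groups did not overlap, and the ratio was 1.57 (log2FC 0.65, SE 0.09, limma adjusted p = 0.0157). Together the paralogs summed to 75.4 ± 6.74 in control and 119.6 ± 8.24 in GSK503 mice (SD, n = 3). Leaving out control mouse 2 gave adjusted p-values of 0.0632 for Rab27a and 0.0612 for Rab27b, and leaving out GSK503 mouse 2 gave 0.0978 and 0.115, so that no member passed 0.05 without the one or without the other library.

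Rab3d (chr9:21818510-21829622, minus strand) is the Rab3 paralog of exocrine granules. It was 143, 132 and 122 scaled CPM in control mice and 170, 188 and 167 in GSK503 mice, without overlap (ratio 1.32, log2FC 0.40, SE 0.08, limma adjusted p = 0.0666). Per kilobase of exon it averaged 25.8 over the 6 mice, and Rab3a, Rab3b and Rab3c averaged 2.65, 0.301 and 0.110. Rab3a, the synaptic and endocrine form, was 8.14, 7.15 and 7.22 in control mice and 8.38, 7.85 and 9.12 in GSK503 mice, and the groups overlapped (log2FC 0.17, 95% interval -0.14 to 0.48). Rab3b read 0.830, 1.14 and 0.763 against 0.754, 2.35 and 0.965, with the highest value in GSK503 mouse 2 and overlap of the rest (log2FC 0.39, 95% interval -0.55 to 1.33). In the opposite direction, Rab3c, which is found in neuroendocrine cells, was 1.48, 2.02 and 1.63 in control mice and 1.10, 0.764 and 0.982 in GSK503 mice. Its groups did not overlap, but its difference missed the threshold (log2FC -0.79, SE 0.28, limma adjusted p = 0.269). Whether Rab3c and Rab3d differed in their response was not tested.

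The remaining granule regulators were low. Rab37, linked to granules of mast and other secretory cells, was 2.05, 1.87 and 1.72 in control mice and 2.71, 2.20 and 4.04 in GSK503 mice, which did not overlap (log2FC 0.60, limma adjusted p = 0.376). GSK503 mouse 3 was the highest, and without it the log2FC was 0.37. Rab26, a regulator of granule maturation, lay between 0.0876 and 0.252 in all mice, and its groups overlapped (log2FC -0.30, 95% interval -1.33 to 0.73).

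**Figure D2:**
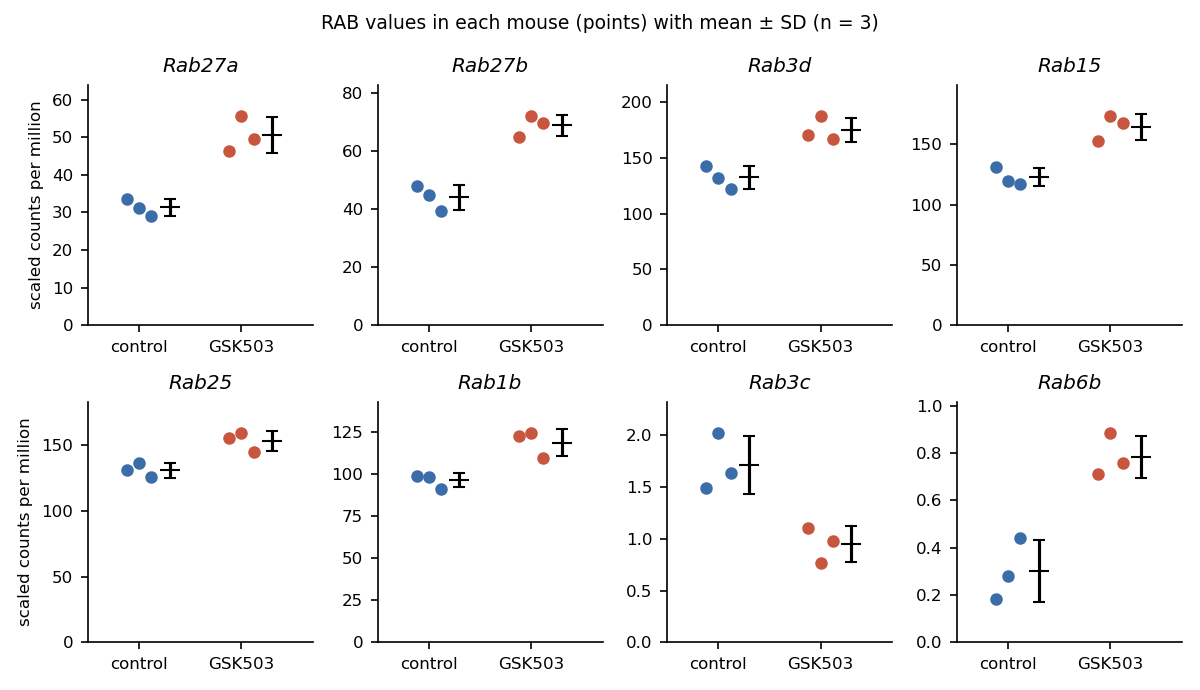
Scaled CPM (vertical axis, from 0) of 8 RAB genes in each of 3 control and 3 GSK503 mice, with the mean and SD beside the points. Rab27a, Rab27b, Rab3d, Rab15, Rab25, Rab1b and Rab6b have every GSK503 mouse above every control mouse, and Rab3c has every one below.

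Markers of secretory cells also differed between the groups. All 9 goblet markers were higher in GSK503 mice by their means and 7 of them at an adjusted p of 0.1, with a median log2FC of 0.79, and their summed level was 10924 to 19272 in control and 33389 to 51697 in GSK503 mice. Clca1, with a mean of 4864 in control and 23931 in GSK503 mice, and Fcgbp, with 6444 and 15993, made up most of this sum. The log2FC of the goblet markers ran from 0.05 for Creb3l1 to 2.38 for Clca1. None of the goblet markers was at 0 in any mouse. All 8 enteroendocrine markers were lower by their means, 3 of them at an adjusted p of 0.1, with a median log2FC of -0.68 and a summed level of 212 to 263 in control and 135 to 173 in GSK503 mice. None of these was at 0 in any mouse either. All 5 tuft cell markers were higher, 2 at an adjusted p of 0.1, with summed levels of 26.6 to 39.02 and 48.4 to 57.0. Rab27a, Rab27b and Rab3d thus had the direction of the goblet and tuft markers and Rab3c that of the enteroendocrine markers. Of the other granule members, Rab3a, Rab3b and Rab37 had a higher mean and Rab26 a lower one. The endocrine form Rab3a therefore had the direction opposite to the enteroendocrine markers (log2FC 0.17), with overlap of its groups. The part of these cells in the result was not tested. In bulk crypts, fewer cells of a type and less RNA per cell cannot be told apart.

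Most partner genes of Rab27 also had a higher mean in GSK503 mice. The list of 9 Rab27 effectors was chosen after its values were seen and is given as a description. Of these, 8 had a higher mean in GSK503 mice, 5 had all GSK503 mice above all control mice, against 9.84% of all genes, and 3 were called higher at an adjusted p of 0.1, against 1.41%. The median log2FC was 0.45, and because the list was chosen from these values its counts support nothing. Mlph, which links Rab27a on granules to myosin Va, was 116, 92.8 and 112 in control and 153, 170 and 155 in GSK503 mice. This was a separation without overlap (log2FC 0.58, SE 0.10, limma adjusted p = 0.033). Sytl2, which tethers Rab27-bound granules at the plasma membrane, was 139, 141 and 123 in control and 171, 189 and 205 in GSK503 mice (log2FC 0.48, SE 0.09, limma adjusted p = 0.0505). Myrip, which couples Rab27 to myosins VIIa and Va, was 9.61, 6.65 and 4.38 in control and 11.04, 17.3 and 19.0 in GSK503 mice (log2FC 1.22, SE 0.29, limma adjusted p = 0.0974). Neither of these overlapped between the groups. Sytl1 was 39.7, 34.1 and 27.0 against 45.5, 53.2 and 47.3, also without overlap, and missed the threshold (log2FC 0.55, limma adjusted p = 0.109). Exph5 had a log2FC of -0.13, and that of Unc13d, which primes granules for fusion, was 0.01. Rph3al, which binds both Rab3 and Rab27 proteins and was not in the list, was 27.5, 26.5 and 31.3 in control and 26.5, 22.7 and 23.3 in GSK503 mice (log2FC -0.23, limma adjusted p = 0.371). The calls of Mlph, Sytl2 and Myrip were all lost without GSK503 mouse 2, with adjusted p-values of 0.191, 0.236 and 0.363, and in 3, 5 and 10 of 16 alternatives in all.

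**Figure D3:**
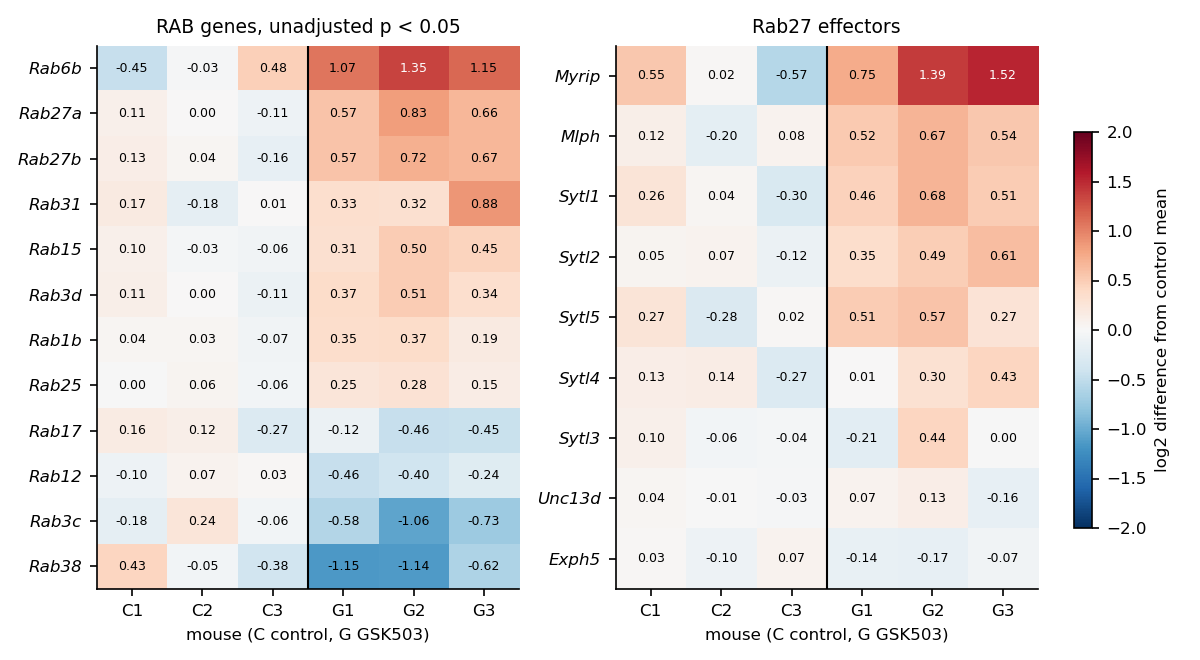
Difference of each mouse from the control mean on the log2(value + 0.1) scale, for the 12 RAB genes with an unadjusted p below 0.05 (left) and the 9 Rab27 effectors (right). The colours and printed values show Rab27a and Rab27b between 0.57 and 0.83 in the GSK503 mice, and Mlph between 0.52 and 0.67.

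In polarized delivery and recycling, 13 members were tested and the median log2FC was 0.02. At an adjusted p of 0.1, 1 was called (7.69%), against 1.97% of all genes. Rab15 (chr12:76844732-76869699, minus strand), a regulator of the recycling endosome, was the called member. It was 131, 120 and 117 in control mice and 153, 174 and 168 in GSK503 mice, which did not overlap (ratio 1.34, log2FC 0.42, SE 0.08, limma adjusted p = 0.0519). Without control mouse 2, control mouse 3 or GSK503 mouse 2 its adjusted p was 0.144, 0.122 and 0.260, and that of Rab3d was 0.159, 0.143 and 0.327. Without GSK503 mouse 1, Rab3d also missed 0.1, at 0.144.

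Rab25, the epithelial paralog of Rab11, had the highest level of the family per kilobase of exon, 80.2 scaled CPM per kilobase over the 6 mice. In scaled CPM it was 131, 137 and 125 in control mice and 155, 159 and 145 in GSK503 mice. The groups did not overlap, but the adjusted p missed the thresholds (log2FC 0.23, SE 0.07, limma adjusted p = 0.207). Rab11a, which drives apical recycling, was 74.9, 78.3 and 82.3 in control and 101, 87.6 and 79.3 in GSK503 mice, and its groups overlapped (log2FC 0.18, 95% interval -0.03 to 0.40). Rab11b, its close paralog, was 61.1, 56.0 and 63.5 against 62.6, 60.1 and 60.3, with overlap and a log2FC of 0.02 (95% interval -0.15 to 0.19). Of 7 effectors of Rab11 and Rab25, also listed after the values were seen, 0 had an unadjusted p below 0.05, against 13.3% of all genes. With so few genes this count is near that share. Their median log2FC was 0.02.

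Rab17, an epithelial regulator of transcytosis, had values of 18.5, 18.0 and 13.7 in control mice and 15.2, 12.03 and 12.1 in GSK503 mice. These overlapped, and its unadjusted p of 0.0469 in limma became 0.365 after adjustment (log2FC -0.35). Rab10, which acts in basolateral delivery, was 134, 136 and 146 in control and 138, 148 and 139 in GSK503 mice, and the groups overlapped (log2FC 0.03, 95% interval -0.13 to 0.19). The other members with this role that had an unadjusted p of at least 0.05, Rab4a, Rab4b, Rab8a, Rab8b, Rab13, Rab14 and Rab35, had a log2FC between -0.26 and 0.08, and their groups overlapped. Of the Rab4b transcript, 75.7% of the 76-base windows also occur in a readthrough or other gene model, so its level is uncertain.

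Among the members of traffic from the endoplasmic reticulum to and through the Golgi, 13 of 15 were tested and the median log2FC was -0.01. None was called at an adjusted p of 0.1, against 1.97% of all genes. Rab1b, which drives export from the endoplasmic reticulum to the Golgi, was 98.9, 98.5 and 91.4 in control mice and 122, 124 and 109 in GSK503 mice. There was no overlap, and the adjusted p lay just outside the looser threshold (log2FC 0.30, SE 0.08, limma adjusted p = 0.126). Without GSK503 mouse 3 it was 0.0672. Rab1a, which shares that function, was 148, 139 and 152 against 149, 149 and 128, and its groups overlapped (log2FC -0.04, 95% interval -0.23 to 0.14). Rab2a, of retrograde Golgi traffic, was 208, 216 and 199 against 225, 233 and 210, also with overlap (log2FC 0.10, 95% interval -0.06 to 0.26).

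Rab6b, the Golgi paralog known from neurons, had the largest log2FC of the family with the pseudocount of 0.1. Its values were 0.183, 0.280 and 0.441 in control mice and 0.712, 0.884 and 0.757 in GSK503 mice. They did not overlap, but the level is low and the difference missed the threshold (log2FC 1.19, SE 0.38, limma adjusted p = 0.211). With a pseudocount of 1 its log2FC was 0.46, below the 0.67 of Rab27a, and those of Rab34, Rab38 and Rab3c were 0.19, -0.35 and -0.47. Markers of enteric neurons and glia summed to 2.07 to 3.67 in control and 2.44 to 4.80 in GSK503 mice, with 4 of 6 higher by their means and 2 at 0 in at least 1 mouse, and their part in the result was not tested. The ubiquitous Rab6a had a log2FC of -0.01 (95% interval -0.18 to 0.15). Rab34 was 0.0913, 0.226 and 0.173 in control and 0.246, 0.215 and 0.541 in GSK503 mice, which overlapped (log2FC 0.68, 95% interval -0.36 to 1.72). The X-linked Rab33a was 0, 0.163 and 0.236 against 0.170, 0.255 and 0.183, again with overlap (log2FC 0.54, 95% interval -0.69 to 1.76). The other members of this group, Rab2b, Rab18, Rab30, Rab33b, Rab36 and Rab43, all overlapped between the groups. Rab43 shares 89% of its 76-base windows with another gene model, and its level is therefore uncertain.

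Of the early endosome regulators, 7 were tested and none was called at an adjusted p of 0.1, against 1.97% of all genes. Rab31, which acts between the trans-Golgi network and endosomes, was 4.22, 3.29 and 3.75 in control and 4.74, 4.70 and 6.96 in GSK503 mice (log2FC 0.51, SE 0.21, limma adjusted p = 0.339). The groups did not overlap, and without GSK503 mouse 3 the log2FC was 0.33. That mouse also had the highest summed levels of macrophage, fibroblast, smooth muscle and endothelial markers. Its macrophage sum was 34.1, against 8.54 and 4.54 in the other GSK503 mice and 15.1 to 22.7 in controls, and its smooth muscle sum was 122, against 4.52 and 4.26 and 20.9 to 90.1 in controls. None of the markers of these 4 cell types was at 0 in any mouse, and their part in the values of Rab31, Rab37, Rab34 and Rab7b was not tested. Rab5a, a regulator of early endosome fusion, did not overlap between the groups although its log2FC was only 0.09 (95% interval -0.07 to 0.25). The other 5, Rab5b, Rab5c, Rab20, Rab21 and Rab22a, overlapped and had a log2FC between -0.25 and 0.11.

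In late endosomes and lysosomes, 5 members were tested and none was called at an adjusted p of 0.1, against 1.97% of all genes. Rab7, which directs late endosomes to lysosomes, was 178, 180 and 188 in control mice and 166, 166 and 167 in GSK503 mice. The groups did not overlap, but the difference was small (log2FC -0.13, SE 0.06, limma adjusted p = 0.451). Rab12, a regulator of recycling receptors and autophagy, was 6.34, 7.17 and 6.96 against 4.93, 5.13 and 5.74, likewise without overlap (log2FC -0.37, SE 0.15, limma adjusted p = 0.342). The X-linked Rab9, of transport from late endosomes to the Golgi, was 25.7, 28.5 and 24.8 against 24.5, 25.6 and 26.8, with overlap (log2FC -0.03, 95% interval -0.24 to 0.17). Rab7b rested on GSK503 mouse 3, which had 1.55, whereas the other 5 mice lay between 0.0424 and 0.389. Rab24 had a log2FC of 0.07.

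The 3 members listed as lysosome-related, Rab29, Rab32 and Rab38, all had a lower mean in GSK503 mice, as did 8511 of the 16670 genes tested. Rab27a and Rab27b, both higher, were listed with the granule regulators and are not counted here. Rab38, a paralog of Rab32 in the biogenesis of melanosomes and related organelles, was 0.830, 0.570 and 0.433 in control mice and 0.212, 0.215 and 0.349 in GSK503 mice. Its groups did not overlap, and the adjusted p missed the threshold (log2FC -0.97, SE 0.39, limma adjusted p = 0.333). Rab29 and Rab32 overlapped, with a log2FC of -0.10 and -0.06. Of the 7 members of ciliary or less well placed function, 0 had an unadjusted p below 0.05, against 13.3% of all genes. By their means 6 were lower, and the log2FC ran from -0.52 for Rab40b to 0.28 for Rab42. Rab28, a ciliary GTPase, was the one whose groups did not overlap, with a log2FC of -0.16 (95% interval -0.38 to 0.06).

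Compared per kilobase of exon, the most abundant members were those of apical recycling and of early secretory and polarized traffic. After Rab25, Rab2a had 44.9, Rab10 35.8, Rab1b 35.2 and Rab1a 32.0 scaled CPM per kilobase of exon over the 6 mice. Divided by the length of the canonical transcript instead, the 5 highest were Rab25, the late endosome member Rab7, Rab1b, Rab2a and Rab1a. Both the order and the roles below Rab25 thus depended on the length used. Rab3d and Rab15 stood at 25.8 and 26.8, Rab27a at 8.63 and Rab27b at 4.74.

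**Figure D4:**
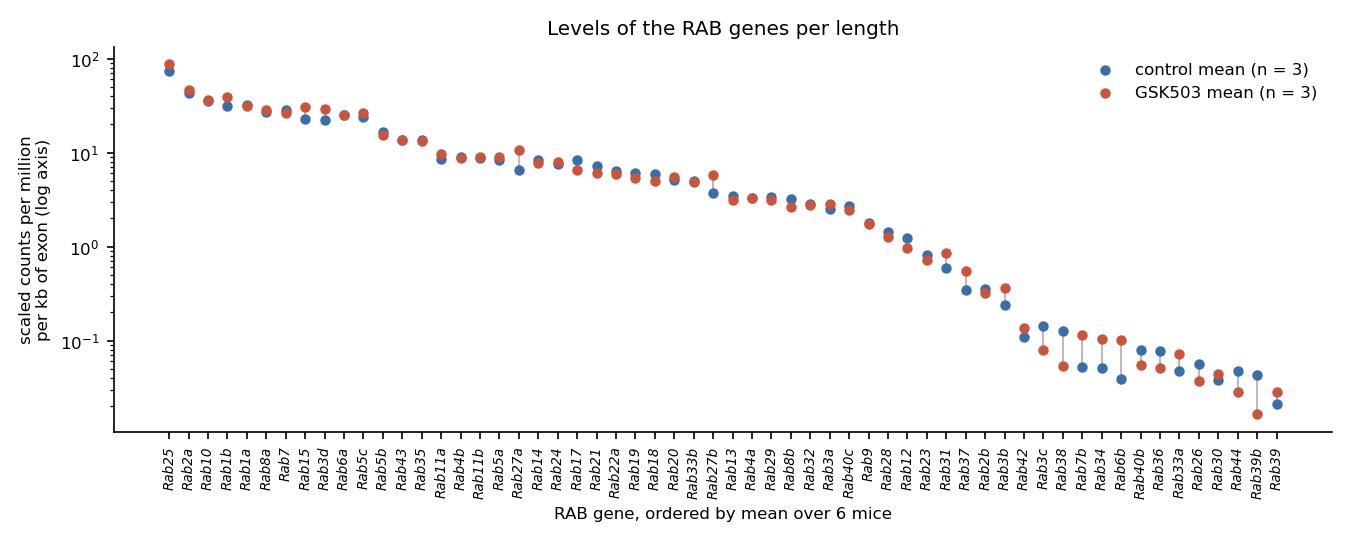
Mean level of each of the 58 RAB genes per kilobase of exon (log axis) in 3 control mice (blue) and 3 GSK503 mice (red), ordered by the mean over 6 mice. Levels span from 80.2 for Rab25 to below 0.1 for the rarest members, where the group means of several lie visibly apart.

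The wider machinery was read from a list drawn up with earlier results of these data known, so its counts and class shares are a description. It held 158 regulators and effectors, of which 156 were analysed and tested. At an adjusted p of 0.1, 7 were higher and 0 lower in GSK503 mice, beside the 1.41% and 0.558% of all genes, and at an unadjusted p of 0.05, 16 were higher and 5 lower, beside 7.06% and 6.27%. In either direction, 13.5% of the list had an unadjusted p below 0.05, near the 13.3% of all genes. With libraries scaled to their plain sum, 6 of 13 called at 0.1 and 10 of 43 at the unadjusted threshold were higher. These totals were 8.33% and 27.6% of the list, beside 6.03% and 20.4% of all genes under that scaling. The median log2FC was 0.02, beside -0.01 over all genes. Besides Mlph, Sytl2 and Myrip, 4 partner genes were called. Mical1, a monooxygenase that binds RAB proteins and disassembles actin, was 35.2, 25.8 and 23.3 in control and 44.3, 50.0 and 46.3 in GSK503 mice (log2FC 0.76, limma adjusted p = 0.0505). Mon1a, part of the exchange factor of Rab7, was 37.3, 39.9 and 34.7 against 54.5, 52.6 and 47.5 (log2FC 0.47, limma adjusted p = 0.0522), while the level of Rab7 itself was lower in each GSK503 mouse than in any control mouse. Tbc1d16, a GTPase-activating protein of the TBC family, was 9.90, 7.63 and 6.41 against 12.7, 13.8 and 13.6 (log2FC 0.76, limma adjusted p = 0.0812). Ehbp1l1, an effector of Rab8 and Rab10, was 47.4, 39.4 and 46.4 against 68.2, 59.1 and 55.4 (log2FC 0.45, limma adjusted p = 0.0936). None of these 4 genes overlapped between the groups. Their calls were lost without GSK503 mouse 2, with adjusted p-values of 0.236, 0.253, 0.343 and 0.327, and also without the intensity trend and with a replicate block. In all, Mical1 lost its call in 5 of 16 alternatives, Mon1a in 6, Tbc1d16 in 7 and Ehbp1l1 in 10.

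By class, 5 of the called partner genes were among 65 effectors and 1 among 44 nucleotide exchange factor genes. A further 1 was among 39 GTPase-activating proteins and 0 among 8 genes of prenylation and recycling of the GTPase. These were 7.69%, 2.27%, 2.56% and 0% of each class, beside 1.97% of all genes. Whether the classes differed was not tested. The partner genes that were lower at an unadjusted p of 0.05 were Lrrk2, Pik3c3, Tbc1d5, Eea1 and Rph3al, with a log2FC between -0.40 and -0.17, and none passed after adjustment. Eea1, the early endosome tether, was 194, 175 and 200 in control and 172, 168 and 166 in GSK503 mice.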

How the data were processed

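Crypt RNA of 3 control and 3 GSK503 mice was analysed, grouped by the sample labels. Part of the genotype shared by both groups is not reported here. The authors aligned paired-end 76 bp reads to GRCm39 with STAR, estimated counts with RSEM and applied TMM scaling with edgeR, and the deposited signal is the result, per 1000000 counts of the scaled library. In each library 75.2% to 78% of the values above 0 were whole multiples of the worth of 1 count, to within 0.01 counts. Whole reads were thus not recovered and no count test was run, and the estimated depth was taken from that worth.

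Values were tested with limma (version 3.58.1, R 4.3.3; lmFit, and eBayes with an intensity trend) on log2(value + 0.1) for genes at 0.1 or more in 3 mice or more (1379 genes were left out), with Benjamini-Hochberg adjustment over the 16670 tested. The p-values rest on the spread between mice, 1 library each, which eBayes moderates toward the spread of other genes of like level. No pair of libraries was identical, and Pearson's r across genes was 0.976 to 0.990. All 58 RAB symbols and 95.75% of all symbols matched the GENCODE annotation of GRCm39, which gave positions and exon lengths. The RAB genes, roles, partner lists and tests were chosen with earlier results of these data known. Every mouse's value is given for RAB genes with an unadjusted p below 0.05 or an adjusted p below 0.1, the 5 highest per kilobase, the 5 with the largest absolute log2FC, those tested on X, the Rab3, Rab11 and Rab27 subfamilies, and partner genes with an adjusted p below 0.1. Values given for others, such as Rab7, Rab7b, Rab37, Sytl1 and Eea1, were chosen after their values were seen. Shared 76-base windows between transcripts marked genes whose reads are uncertain. Only the limma fit was tested on simulated data, with planted changes larger than those of most members and partner genes called here. The simulated spread followed the intensity trend, so the dependence of the calls on that trend was not tested there. Alternatives were other scalings, pseudocounts (1 and 0.01) and filters, no intensity trend, robust fitting, omission of X and Y genes, a replicate block and leaving out each mouse. Tables and figures used matplotlib 3.10.9, pandas 2.3.3, numpy 2.4.6 and scipy 1.17.1 under Python 3.11.15.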

Additional observations from a re-analysis of the deposited data

How the results depend on the processing

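No direction of a called member or partner gene reversed under any alternative run. The number of members at an adjusted p of 0.05 was 2, with 0.642% of all genes called. Without the intensity trend 0 passed (0.096% of all genes), and with a replicate block 0 (0.198%). With median scaling and with robust fitting 3 passed, the main 2 and another (0.972% and 0.864% of all genes). When a mouse was left out, 0 to 2 passed (0.18% to 1.37% of all genes). At 0.1 the number was 4, with 1.97% of all genes called. It was 0 without the trend (0.18% of all genes) and 2 with the block (0.564%). With scaling to the library sum it was 5 (6.03% of all genes): the main 4, all higher, and Rab7, lower. Leaving out a mouse gave 1 to 5, beside 0.33% to 3.64% of all genes. It was 2 without control mouse 2 (0.708%), 2 without control mouse 3 (0.66%) and 1 without GSK503 mouse 2 (0.33%). The number of partner genes at 0.1 was 7, and it was 0 without the trend and 0 with the block. The same shares of all genes at 0.1 stand beside these counts, with 0.954% without GSK503 mouse 1. Library sum scaling gave 13 (6 higher, 6 shared with the main 7), and leaving out a mouse gave 0 to 6, with 2, 1, 4 and 0 without control mouse 2, control mouse 3, GSK503 mouse 1 and GSK503 mouse 2. At an unadjusted p of 0.05, the count of 12 members became 8 to 18, and library sum scaling gave 6 higher of 18. The share of all genes, 13.3% in the main fit, ran from 8.33% to 20.4%. For the partner genes library sum scaling gave 43 in place of 21 (10 higher). Leaving out a mouse gave 15 to 28 of them, beside 8.33% to 15.5% of all genes. Library sum scaling gave 24 members that did not overlap in place of 15, while the share of all genes rose from 19.1% to 26.0%. Leaving out a mouse gave 19 to 23, and with fewer mice to separate the share of all genes was also higher, 25.1% to 34.6%. Library sum scaling also moved the median log2FC of all genes to -0.12 and of the members to -0.13, so differences are relative to this shift. The members' median was -0.05 to 0.02 when a mouse was left out.

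Over the 16 alternatives the adjusted p of Rab27a ran from 0.0117 to 0.191 with a log2FC of 0.57 to 0.75, and that of Rab27b from 0.0121 to 0.194, with both maxima in the fit without the trend. Deviations of same-numbered mice from their group means had an r of 0.03, -0.13 and -0.12 across genes. Pairs with different numbers ran from -0.17 to 0.22. With so few mice these values cannot tell whether the numbers pair the mice. The 11 members and partner genes called at 0.1 had 176 values under alternatives, of which 116 kept the call and 60 lost it. With a pseudocount of 1 in place of 0.1 the log2FC of Rab6b was 0.46 in place of 1.19. The depth limits only members near the floor, such as Rab39 and Rab39b.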
